A study of Mus musculus with 8 samples.

Results

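The 31 members described here are the mouse semaphorins, a family of guidance cues, together with their receptors, the plexins and neuropilins. They were taken by gene symbol from the 39017 genes of the deposited count table: 20 semaphorins of classes 3 to 7, 9 plexins and 2 neuropilins. Each symbol matched 1 Ensembl gene, and all 31 were among the 19494 genes that passed the low-count filter. The study compared cells of the cochlear nucleus, the first auditory relay of the hindbrain, sorted at E18.5, shortly before birth, from mice of strain C57BL/6. Every embryo carried Math1::Cre and a Rosa tdTomato reporter, so that cells in which the Math1 (Atoh1) driver had been active, and their descendants, were fluorescent. For wild type embryos the titles name no further allele. The sample titles give mutant embryos as Hoxa2+/fl; Hoxb2fl/fl, that is with 1 conditional Hoxa2 allele and 2 conditional Hoxb2 alleles, whereas the series' design text gives both genes as homozygous (Hoxa2fl/fl; Hoxb2fl/fl). There were 4 libraries of each group, each from 30000 cells of 3 pooled littermates, with a different mother for every library. Deletion takes place only where the driver acts, and each library averages over all fluorescent cells of the dissected nucleus.

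Semaphorins act on the growth cone and on migrating cells. Class 3 members are secreted and mostly bind a neuropilin, which holds the ligand while a plexin A passes the signal into the cell. Sema3e is the exception and binds plexin D1 directly. Classes 4, 5 and 6 span the membrane, and class 7 is anchored to it by a lipid. They bind plexins without a neuropilin: class 4 mainly plexins B, class 6 mainly plexins A, and Sema7a plexin C1 and integrins. Transmembrane semaphorins can also receive signals themselves. In the cerebellum, Sema6a on granule cells and its receptor Plxna2 steer the inward migration of those cells.

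Total counts lay between 24789043 and 51118195 per library. Libraries are named by the running number in the table's headings, mutant 1 to 4 and wild type 5 to 8. Hoxb2 stood at 37.4 to 46.6 CPM (the count relative to the library's total, after TMM scaling) in wild type and at 3.77 to 6.81 CPM in mutant libraries, whereas Hoxa2 overlapped, at 30.8 to 55.1 and 11.1 to 48.0 CPM. The neighbouring Hoxb1 was at 0.114 to 0.467 CPM in wild type and at 76.1 to 94.2 CPM in mutant libraries. Markers of the sorted lineage were present in every library: Barhl1, a homeobox gene of Atoh1-derived neurons, at 352 to 540.5 CPM, and Pax6, expressed by granule and unipolar brush cells, at 817 to 1225 CPM. On the first principal component of all tested genes, with 34.4% of the variance, mutant 1 lay at -22.0, between wild type 5 and 6 (-43.5 and -51.9) and wild type 7 and 8 (-3.61 and 3.07), while mutant 2 to 4 lay at 33.1 to 49.9. Where mutant 1 stood apart from the other mutant libraries, values without it are given as well. Leaving it out was thus chosen from these same data. In that edgeR fit 2.7% of all tested genes had an adjusted p below 0.05, beside 0.359% with all libraries. The mean log2 CPM of 4 Y-linked genes, with 0.5 added to each CPM, was -0.93 in mutant 3 and -0.73 in wild type 8. It was at least 3.99 elsewhere. The X-linked Xist was at 130, 278 and 832 CPM in mutant 1, wild type 5 and wild type 6, and at 2297 to 3544 CPM elsewhere. Pools thus differed in their share of male and female embryos, and the sample titles give no sex.

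One of the 31 genes passed the test between the groups. The transmembrane ligand Sema6a fell, and none rose (edgeR quasi-likelihood test, Benjamini-Hochberg adjusted p below 0.05 over all 19494 tested genes). Among all tested genes 0.359% passed, 0.215% lower and 0.144% higher. The 31 log2 fold changes were 16 positive and 15 negative, with a median of 0.02, beside -0.01 over all tested genes. The median size of the change, regardless of sign, was 0.31 for the members and 0.20 over all tested genes. At an unadjusted p below 0.05 there were 8 members, 6 lower and 2 higher, beside 12.5% of all tested genes, 5.29% lower and 7.22% higher. These 8 were Sema6a, Plxnc1, Sema6d, Sema4b, Sema3c and Nrp2 with lower, and Sema4f and Sema3f with higher values in mutant libraries. The groups did not overlap for 2 members, Sema6a and Plxnc1, as for 6.17% of all tested genes, 2.94% with lower and 3.23% with higher mutant values.

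**Figure D1:**
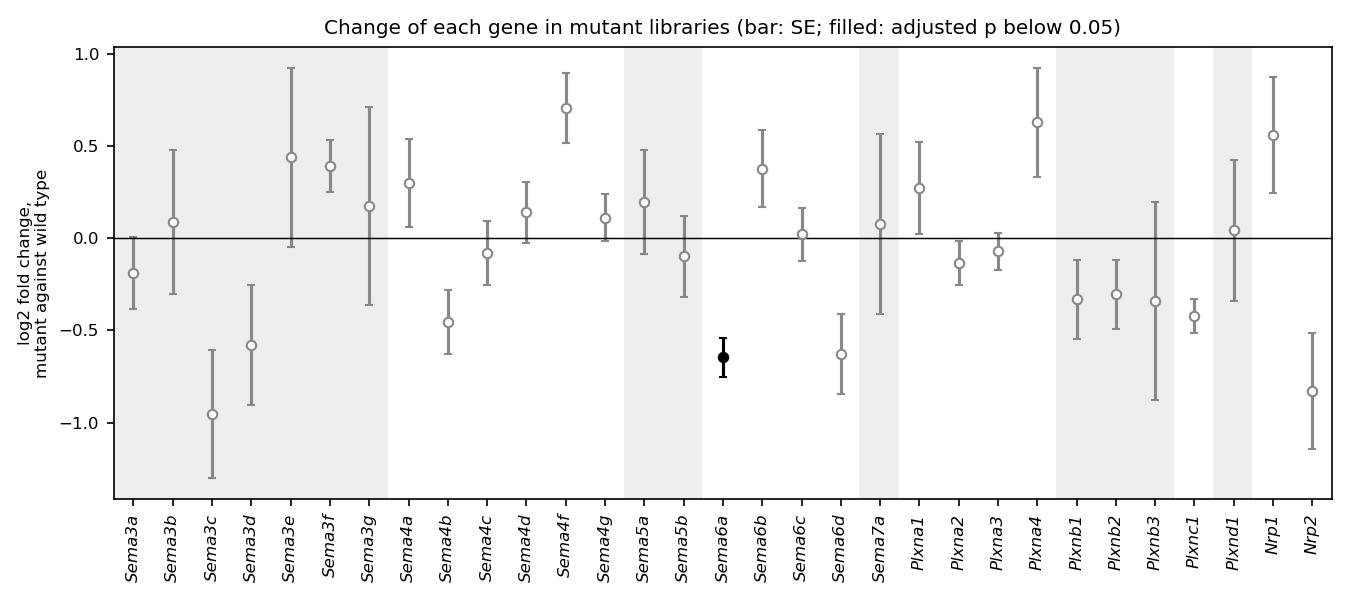
The vertical axis is the log2 fold change of mutant against wild type libraries with its approximate SE for each of the 31 genes, grouped by class with shaded bands. The single filled point is Sema6a at -0.65, the member that passed the test, and the widest bars belong to genes with few reads such as Sema3g and Plxnb3.

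Before the changes, the levels show which ligands and receptors these cells held. To set genes of different length side by side, CPM was divided by the gene width in the deposited table, in kilobases (CPM per kb). In wild type libraries 9 members exceeded 10 CPM per kb and held 80.4% of the family's summed level. They were the receptors Plxnb2, Plxnc1, Nrp1, Plxna3, Plxna2 and Plxna1 and the ligands Sema6a, Sema6d and Sema4g. Plxnb2, a receptor for class 4 semaphorins, was the highest at 62.9 ± 13.8 CPM per kb (SD, n = 4), and Sema6a was next at 40.5 ± 3.98 (SD, n = 4). Plxnb2 ranged from 47.6 to 79.8 CPM per kb in wild type and Sema6a from 36.0 to 45.0, so that these neighbours did not overlap. Below these came Plxnc1 at 28.1 ± 1.73 CPM per kb (SD, n = 4), Nrp1 at 25.9, Sema6d at 22.7, Plxna3 at 21.3, Sema4g at 19.4 and Plxna2 at 18.9 CPM per kb on average. Most neighbours in this order overlapped: Plxnc1, at 26.1 to 30.1, overlapped Nrp1 and Sema6d (19.1 to 26.7), and Sema4g (15.7 to 23.1) overlapped Plxna3 and Plxna2. Every wild type value of Plxna3 lay above those of Plxna2 (14.6 to 20.5). Nrp1 alone spread from 13.9 to 38.8 CPM per kb over the wild type libraries, whereas Plxna3 kept to 20.7 to 21.9.

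The remaining 22 members stood below 10 CPM per kb, 10 of them below 1. At the bottom were Plxnb3, a plexin known from the oligodendrocyte lineage, at 0.105 ± 0.0431 CPM per kb, and the secreted ligands Sema3g at 0.108 ± 0.0794, Sema3e at 0.154 ± 0.0289 and Sema3b at 0.231 ± 0.126 CPM per kb in wild type (SD, n = 4 each). Plxnb3 rested on 2 to 38 reads per library. For the 2 reads in mutant 2 the exact Clopper-Pearson 95% limits were 0.00921 and 0.275 CPM before TMM scaling. These levels depend on the length chosen. With total exon length in the GENCODE annotation instead, 5 members moved by more than 1.5 times: Sema3a from 4.88 to 2.27, Sema4g from 19.4 to 10.9, Sema5a from 0.823 to 0.476, Nrp1 from 25.9 to 15.6 and Sema3f from 3.53 to 2.30 CPM per kb in wild type. The same 9 members exceeded 10 CPM per kb, the first 3 places by mean did not change, and the largest move in place was that of Sema3a from the 14th to the 19th.

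**Figure D2:**
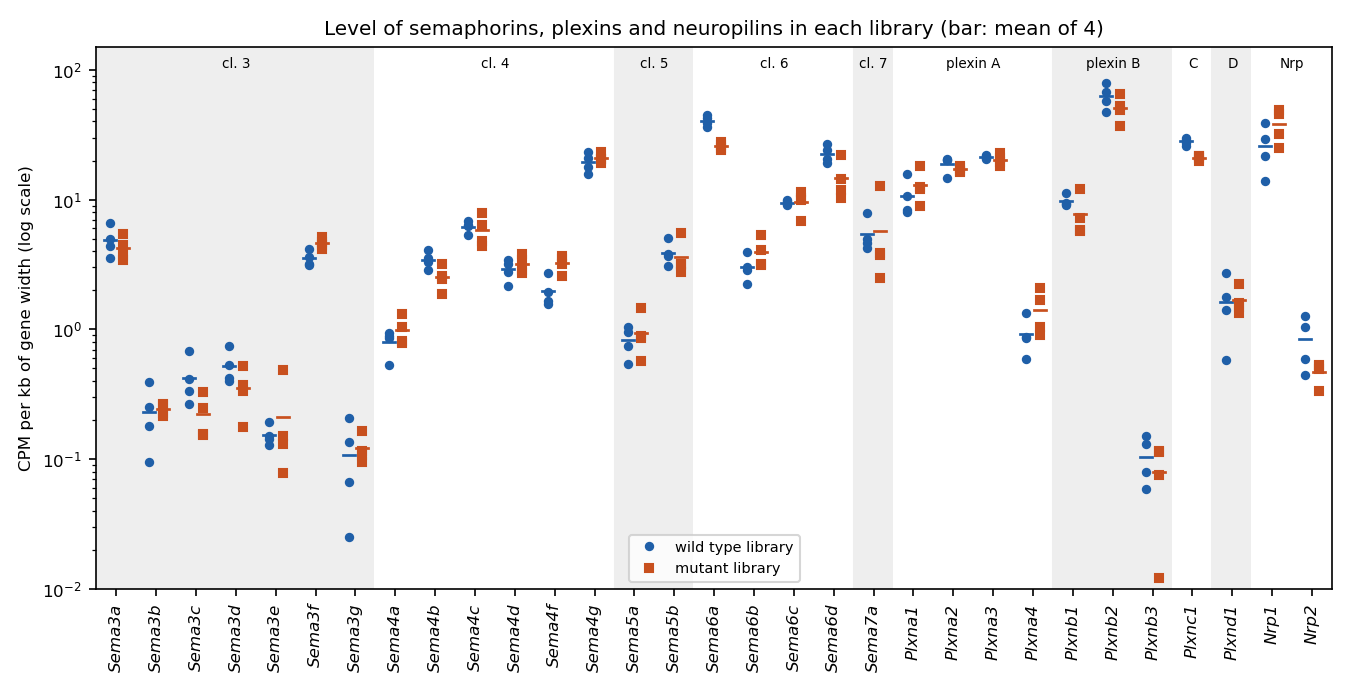
Each point is 1 library, in CPM per kb of gene width on a log axis, with wild type as circles, mutant as squares and a bar for the mean of 4. Plxnb2, Sema6a and Plxnc1 lead in wild type, and most secreted class 3 ligands lie below 1 CPM per kb.

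Summed by class, the ligands were mostly of the transmembrane kind. Class 6 summed to 75.7 ± 5.72 CPM per kb in wild type, class 4 to 34.7 ± 4.61, class 3 to 9.85 ± 1.05, class 7 to 5.44 ± 1.70 and class 5 to 4.72 ± 0.625 (SD, n = 4 each). Receptors summed to 72.8 ± 14.7 CPM per kb for the 3 plexins B, 51.8 ± 6.13 for the 4 plexins A, 28.1 ± 1.73 for Plxnc1, 26.7 ± 10.7 for the neuropilins and 1.63 ± 0.891 for Plxnd1. A single gene carried most of several sums: Nrp1 made up 96.9% of the neuropilin level, Plxnb2 86.5% of plexin B and Sema5b 82.6% of class 5. Sema4g made up 55.8% of class 4, but 42.6% by total exon length. By that length class 3 summed to 5.84, class 4 to 25.6 and the neuropilins to 16.3 CPM per kb in wild type. Class 6 was the class whose sum did not overlap between the groups apart from Plxnc1: it lay at 71.2 to 83.9 CPM per kb in wild type and at 48.4 to 63.6 in mutant libraries. Sema6a, the member that passed, made up 53.5% of the class 6 sum in wild type, so that this separation in part restates that of Sema6a. Of the 4 class 6 genes, 2 had positive and 2 negative fold changes. Sums are a description and carry no test.

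**Figure D3:**
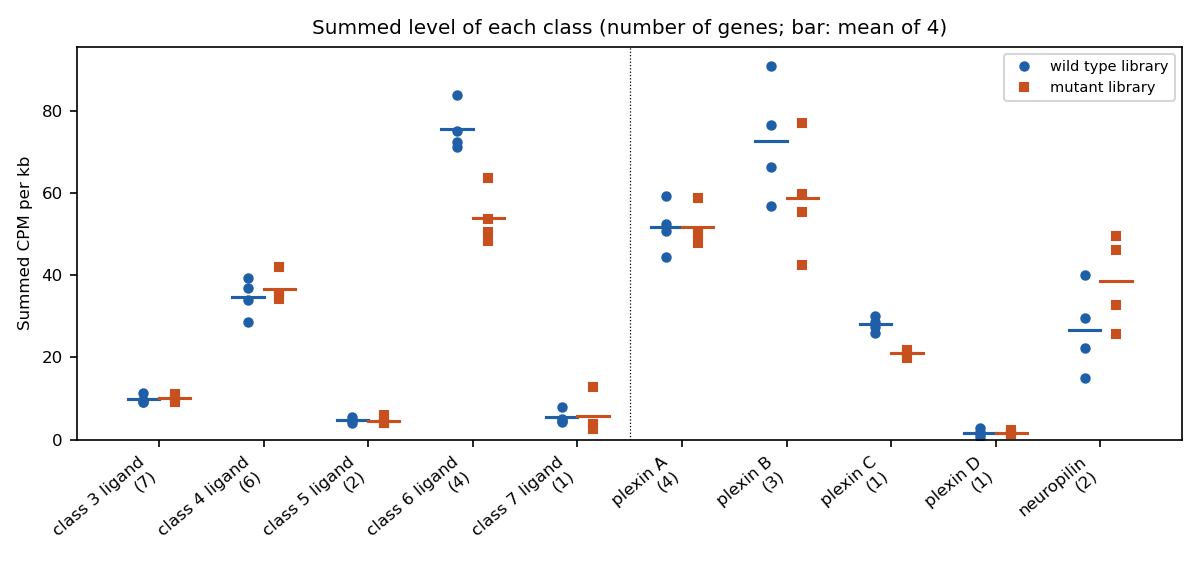
Points are the summed CPM per kb of each class in 1 library, with a bar for the mean of 4 and the number of genes in parentheses. The class 6 squares (mutant) lie below all class 6 circles (wild type), and the same holds for plexin C, which is Plxnc1 alone, whereas the plexin A means are level at 51.8. Sema6a alone makes up 53.5% of the class 6 sum in wild type.

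Class 6 holds transmembrane ligands that bind plexins A. Sema6a (ENSMUSG00000019647), which binds Plxna2 and Plxna4, stood at 316, 395, 372 and 339 CPM in wild type 5 to 8, against 245, 232, 211 and 221 CPM in mutant 1 to 4. Every mutant library lay below every wild type library. The group means were 356 ± 35.0 and 227 ± 14.6 CPM (SD, n = 4), log2 change -0.65 with SE 0.105 (edgeR, adjusted p = 0.0251; two-sided exact test over 70 library splits, p = 0.0286, the smallest possible). This is a level 36.1% lower, with 5881 to 13391 reads behind each value. With the Y-linked level as a covariate the log2 fold change was -0.64 (edgeR adjusted p = 0.0207). Without mutant 1 it was -0.68 (edgeR adjusted p = 0.0119), in a fit that called 2.7% of all genes. The call was lost, with the direction kept, in 6 of the 8 fits that left out 1 library. Leaving out mutant 2, 3 or 4 gave edgeR adjusted p-values of 0.0958, 0.0674 and 0.108, and leaving out wild type 6, 7 or 8 gave 0.0503, 0.0590 and 0.0807. These fits called between 0.13% and 0.384% of all genes: 0.163%, 0.181% and 0.13% for the 3 mutant and 0.384%, 0.319% and 0.16% for the 3 wild type libraries, in the same order. Without wild type 5 the call held (edgeR adjusted p = 0.0468), beside 0.182% of all genes. In bulk libraries, fewer cells with a transcript and less of it per cell cannot be told apart.

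Sema6d (ENSMUSG00000027200, chromosome 2, 124089969 to 124667770, mm10), which binds Plxna1, was at 257, 282, 202 and 217 CPM in wild type 5 to 8, against 234, 151, 109 and 125 CPM in mutant 1 to 4. Mutant 1 lay within the wild type range and the other mutant libraries below it. Over all libraries it did not pass, at a log2 change of -0.63 with SE 0.217 (edgeR, adjusted p = 0.290; two-sided exact test, p = 0.0857). Without mutant 1 it passed at -0.90 (edgeR adjusted p = 0.0106), in a fit that called 2.7% of all genes. The other members of class 6 did not pass in any fit. Sema6c was at 56.1 ± 2.39 CPM in wild type and 56.9 ± 11.6 in mutant libraries (SD, n = 4), with a log2 fold change of 0.02 (SE 0.143) whose sign turned with scaling by library size only, with quality weights and without mutant 1 or mutant 4. Sema6b was at 12.04 ± 2.83 and 15.6 ± 4.04 CPM (SD, n = 4), log2 change 0.38 with SE 0.209 (edgeR, adjusted p = 0.484).

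The plexins A, receptors of class 6 and, with neuropilins, of class 3, did not pass, and 2 of the 4 had positive and 2 negative fold changes. Plxna2 was at 285 ± 42.9 CPM in wild type and 259 ± 11.4 in mutant libraries (SD, n = 4), log2 change -0.14 with SE 0.120 (edgeR, adjusted p = 0.659). Wild type 6 was the lowest library, at 221 CPM beside 303 to 310 in wild type 5, 7 and 8. The X-linked Plxna3 was at 163 to 172 CPM in wild type and 143 to 179 in mutant libraries, with a log2 fold change of -0.07 (SE 0.0990). Plxna1 was uneven, at 72.9 to 141 CPM in wild type and 80.0 to 163 CPM in mutant libraries (log2 fold change 0.27, SE 0.250; without mutant 1, 0.42 with edgeR adjusted p = 0.373). It shares 970 exonic bases with the opposite-strand gene Gm26811, at 13.8 and 15.4 CPM, and without stated strand the reads of that stretch cannot be assigned. Plxna4, the other receptor of Sema6a, was low, at 10.3 ± 3.45 CPM in wild type and 16.0 ± 6.17 in mutant libraries (SD, n = 4; log2 change 0.63 ± 0.297 SE, edgeR adjusted p = 0.421).

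Plxnc1, the receptor of Sema7a, was the second member without overlap between the groups. Plxnc1 (ENSMUSG00000074785, chromosome 10, 94790866 to 94944835, mm10) stood at 236, 204, 215 and 225 CPM in wild type 5 to 8, against 156, 168, 163 and 171 CPM in mutant 1 to 4. All 4 mutant libraries lay below the lowest wild type library, and each group varied little: 220 ± 13.6 against 164 ± 6.60 CPM (SD, n = 4). The log2 fold change was -0.42 (SE 0.0928), or 25.3% lower, and it did not pass over all genes (edgeR adjusted p = 0.0917; two-sided exact test, p = 0.0286). It passed with DESeq2 (adjusted p = 0.0136), which called 1.36% of all genes, and with limma-voom with quality weights (0.0380), which called 1.2%. Its ligand Sema7a was at 14.0 to 26.2 CPM in wild type and at 42.1, 8.27, 12.4 and 12.7 CPM in mutant 1 to 4. Mutant 1 was thus the highest library of all and the other mutant libraries lay below every wild type library. The log2 fold change of Sema7a was 0.08 (SE 0.488) over all libraries and -0.68 without mutant 1 (edgeR adjusted p = 0.141). Integrin beta 1 (Itgb1), which also binds Sema7a, was at 86.7 CPM in wild type against 69.1 in mutant libraries (log2 change -0.33 ± 0.120 SE, edgeR adjusted p = 0.303).

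**Figure D4:**
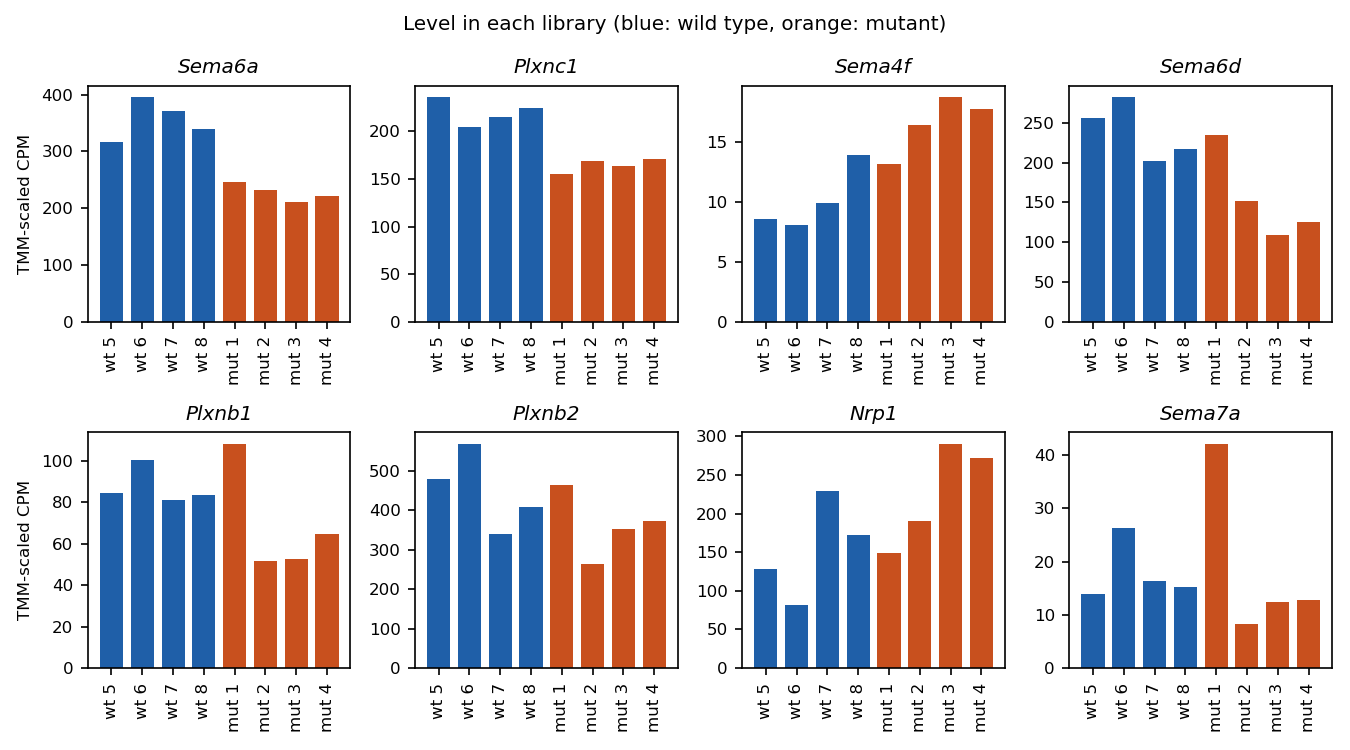
Bars are TMM-scaled CPM in each library for 8 members, with wild type in blue and mutant in orange and all axes starting at 0. Sema6a and Plxnc1 separate the groups, whereas in Sema6d, Plxnb1 and Sema7a the bar of mutant 1 stands apart from those of mutant 2 to 4.

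Among the class 4 ligands, which are transmembrane and mostly bind plexins B, 4 of 6 had positive and 2 negative fold changes, and none passed. Sema4f (ENSMUSG00000000627, chromosome 6, 82911885 to 82939769, mm10) showed the largest difference, at 8.56, 8.06, 9.95 and 14.0 CPM in wild type 5 to 8, against 13.2, 16.4, 18.8 and 17.8 CPM in mutant 1 to 4. Wild type 8 lay above mutant 1, and the groups otherwise did not overlap. The log2 fold change was 0.71 (SE 0.190, edgeR adjusted p = 0.161, two-sided exact test, p = 0.0571). Sema4f passed with DESeq2 (adjusted p = 0.0325), which called 1.36% of all genes. It also passed without mutant 1 (0.80, edgeR adjusted p = 0.0483), in a fit that called 2.7%. Sema4b was at 18.7 ± 2.79 CPM in wild type and 13.7 ± 2.92 in mutant libraries (SD, n = 4), with mutant 1, at 17.4 CPM, the only mutant library inside the wild type range (log2 change -0.46 ± 0.173 SE, edgeR adjusted p = 0.315; without mutant 1, -0.59 and 0.0874). Sema4g, the most abundant class 4 ligand, was at 94.3 ± 16.0 and 102 ± 7.81 CPM (SD, n = 4; log2 fold change 0.11, SE 0.128). Sema4d, the ligand of Plxnb1, had 0.14 (SE 0.165), Sema4c, a ligand of Plxnb2, -0.08 (SE 0.174) and Sema4a 0.30 (SE 0.239) on the log2 scale.

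All 3 plexins B had negative fold changes and none passed. Plxnb1 was at 84.3, 100, 81.0 and 83.5 CPM in wild type 5 to 8, against 108, 51.7, 52.6 and 64.9 CPM in mutant 1 to 4. Mutant 1 was the highest library of all, and the other mutant libraries were the 3 lowest. The log2 fold change of Plxnb1 was -0.33 (SE 0.215, edgeR adjusted p = 0.542) over all libraries. Without mutant 1 it was -0.63 and passed (edgeR adjusted p = 0.0246), in a fit that called 2.7% of all genes. Plxnb2, which also serves cell migration in the hindbrain and cerebellum, was at 479, 568, 339 and 407 CPM in wild type 5 to 8, against 463, 262, 352 and 373 CPM in mutant 1 to 4 (log2 change -0.31 ± 0.187 SE, edgeR adjusted p = 0.521; without mutant 1, -0.44 and 0.200). The groups overlapped in all but wild type 5 and 6, the 2 highest, and mutant 2, the lowest. Plxnb3 had -0.34 (SE 0.537) at under 1 CPM in every library.

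In class 3, the secreted ligands, none of 7 passed, with 4 positive and 3 negative fold changes. Sema3a, the classical growth cone collapsing factor, was at 31.5 ± 8.30 CPM in wild type and 27.7 ± 5.72 in mutant libraries (SD, n = 4; log2 fold change -0.19, SE 0.195). Sema3f, which acts through Nrp2, was at 10.8, 14.1, 12.3 and 10.6 CPM in wild type 5 to 8, against 15.2, 14.0, 17.5 and 15.9 CPM in mutant 1 to 4. Only wild type 6 and mutant 2 crossed, and narrowly (log2 change 0.39 ± 0.141 SE, edgeR adjusted p = 0.298). Sema3c was at 3.03 ± 1.29 CPM in wild type and 1.58 ± 0.607 in mutant libraries (SD, n = 4), log2 change -0.95 with SE 0.348 (edgeR, adjusted p = 0.300), and rested on 41 to 189 reads. Sema3d had -0.58 (SE 0.327) on the log2 scale. The fold change of Sema3e, 0.44 (SE 0.487), rested on mutant 2, at 3.70 CPM beside at most 1.48 CPM elsewhere, and turned to -0.35 without that library. Sema3b at 0.09 (SE 0.389) and Sema3g at 0.17 (SE 0.539) rested on at most 50 reads in any library.

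The neuropilins, which hold class 3 ligands, stood far apart in level, at 25.9 CPM per kb for Nrp1 and 0.840 for Nrp2 in wild type, and neither passed. Nrp1, also a receptor for vascular endothelial growth factor, was at 128, 82.2, 229 and 173 CPM in wild type 5 to 8, against 149, 191, 290 and 271 CPM in mutant 1 to 4. The highest values were in mutant 3 and 4, yet wild type 7 exceeded mutant 1 and 2, and the log2 fold change of 0.56 (SE 0.314) did not pass (edgeR adjusted p = 0.495; without mutant 1, 0.71 and 0.266). Nrp2 was at 5.58, 10.0, 12.2 and 4.20 CPM in wild type 5 to 8, against 4.98, 5.08, 4.72 and 3.19 CPM in mutant 1 to 4. Wild type 6 and 7 stood above the rest, and wild type 8 lay among the mutant libraries (log2 change -0.83 ± 0.314 SE, edgeR adjusted p = 0.315). Plxnd1, the receptor of Sema3e and known from endothelium, was at 12.8, 19.7, 4.20 and 10.2 CPM in wild type 5 to 8 and 9.62 to 16.2 CPM in mutant libraries (log2 fold change 0.04, SE 0.381, sign turned by scaling by library size only and without mutant 1, wild type 7 or wild type 8). The 8 listed endothelial markers summed to 7.69 to 23.6 CPM in wild type and 6.74 to 15.4 CPM in mutant libraries, with none passing. Their sum was highest in wild type 6, where 1 marker, Kdr, gave 12.9 of the 23.6 CPM, and Plxnd1 was highest in that library too. The order did not hold throughout: Plxnd1 was lowest in wild type 7, whose marker sum was 13.9 CPM. That was above the sums of wild type 8, mutant 3 and mutant 4, at 6.74 to 8.02 CPM. The part of endothelial cells in these levels was not tested.

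The 2 class 5 ligands, which carry thrombospondin repeats, did not pass. Sema5b was at 27.6 ± 5.84 CPM in wild type and 25.8 ± 8.78 in mutant libraries (SD, n = 4; log2 fold change -0.10, SE 0.219). Its highest libraries were mutant 1 at 38.8 CPM and wild type 5 at 35.7 CPM, against 19.7 to 26.9 CPM in the others, and without mutant 1 the log2 change of Sema5b was -0.36 (edgeR adjusted p = 0.259). Sema5a had 0.19 (SE 0.281) on the log2 scale, at 5.83 to 11.4 CPM in wild type and 6.12 to 15.7 CPM in mutant libraries.

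Several members ordered the libraries in the same way, across the groups. Wild type 5, wild type 6 and mutant 1 held the 3 highest levels of Sema6d, Plxnb1 and Plxnb2 and the 3 lowest levels of Nrp1 and Plxna1. They were also the 3 lowest on the first principal component of all tested genes, at -43.5, -51.9 and -22.0. This order is therefore not particular to these members, and the share of all tested genes that show it was not computed. Atoh1 itself, the transcription factor of rhombic lip progenitors for whose driver the Cre is named, was at 89.1, 154 and 134 CPM in those 3 libraries and at 28.5 to 59.3 CPM in the other 5. None of the other listed markers of Atoh1-lineage neurons had its 3 highest values there. One of them, Slc17a7, had its 3 lowest values there, at 11.8 to 15.9 CPM beside 16.7 to 25.0 CPM elsewhere. The same 3 libraries were also those with the highest Y-linked level, at 5.86 to 6.26 in mean log2 CPM (0.5 added) beside at most 4.86. The part of the Atoh1 level in the values of these members was not tested. With the Y-linked level as a covariate, edgeR called 1 member, Sema6a, and not Sema6d, Plxnb1, Plxnb2, Nrp1 or Plxna1, beside 0.487% of all genes. With the 3 libraries left out together, Sema6a passed at -0.68 (edgeR adjusted p = 0.0304) and was the only member to do so, in a fit that called 0.849% of all genes. Sema6d then had an edgeR adjusted p of 0.0605 and Plxnb1 of 0.145.

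Markers of other cell types in the sorted cells were mostly low. The 8 listed glial markers of radial glia and astrocytes summed to 346 to 472 CPM in wild type and 207 to 518 CPM in mutant libraries, highest in mutant 1. For the 8 oligodendrocyte lineage markers the sums were 73.1 to 105 and 76.6 to 86.3 CPM, and for the 7 inhibitory neuron markers 31.9 to 58.8 and 44.9 to 103 CPM. None of these 3 lists held a gene past the threshold. The 8 microglial markers summed to 14.9 to 22.9 and 11.0 to 17.4 CPM, and 1 of them passed, C1qa, a complement gene, at 0.858 to 3.65 CPM in wild type against at most 0.35 CPM in mutant libraries. The highest of them, Csf1r, was at 10.9 CPM in wild type and 11.4 in mutant libraries. All other tested microglial markers had negative fold changes, such as P2ry12, at 2.32 against 0.557 CPM (edgeR adjusted p = 0.0900). The 8 pericyte and meningeal markers stayed at or below 21.6 CPM in sum, and Hba-a1 and Hba-a2, of the 6 erythroid markers, had no reads in any library. Of the 10 markers of Atoh1-lineage neurons, which summed to 1410 to 1497 CPM in wild type and 1033 to 1241 CPM in mutant libraries, Nhlh1 passed as lower. Of the 8 granule and unipolar brush cell markers, at 5812 to 6970 and 6028 to 8692 CPM in sum, Etv1 passed as higher. Whether the make-up of the sorted cells bears on the member values was not tested.

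Beyond ligands and plexins, 49 partner genes were listed by function, and 48 had enough reads to be tested. None passed by edgeR, 6 had an unadjusted p below 0.05, beside 12.5% of all tested genes, and DESeq2 called 1. Their median log2 fold change was 0.04, with 28 positive and 20 negative. The lowest p belonged to Mical3, an enzyme that oxidises actin downstream of plexins in the Mical family, at 52.5 CPM in wild type against 69.1 in mutant libraries with no overlap (log2 change 0.40 ± 0.128 SE, edgeR adjusted p = 0.247). Chl1, an adhesion molecule that acts as a co-receptor with Nrp1, was at 121, 91.4, 234 and 188 CPM in wild type 5 to 8, against 176, 374, 347 and 377 CPM in mutant 1 to 4 (log2 change 1.01 ± 0.324 SE, edgeR adjusted p = 0.275). Mutant 1 lay within the wild type range, without it Chl1 was at 1.21 (edgeR adjusted p = 0.0557), and DESeq2 called Chl1 (adjusted p = 0.0257). Cntn2, an axonal adhesion molecule also known as TAG-1, was at 369 CPM in wild type against 237 in mutant libraries (log2 change -0.64 ± 0.251 SE, edgeR adjusted p = 0.343). Cntn2 passed without mutant 1, which stood at 384 CPM, at -0.97 (edgeR adjusted p = 0.00869), in a fit that called 2.7% of all genes. The collapsin response mediators, which carry the signal to the cytoskeleton, lay between -0.07 and 0.36 on the log2 scale (5 genes), and the kinases and actin effectors between -0.19 and 0.25 (11 genes).

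Sema6a was the 1 member called with DESeq2's size factors in edgeR, upper quartile scaling, library size only, limma-voom, a non-robust dispersion, no low-count filter, a floor of 1 CPM in 4 libraries and the Y-linked covariate. Those fits called 0.349%, 0.298%, 0.39%, 0.354%, 0.339%, 0.616%, 0.337% and 0.487% of all genes in that order.

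**Figure D5:**
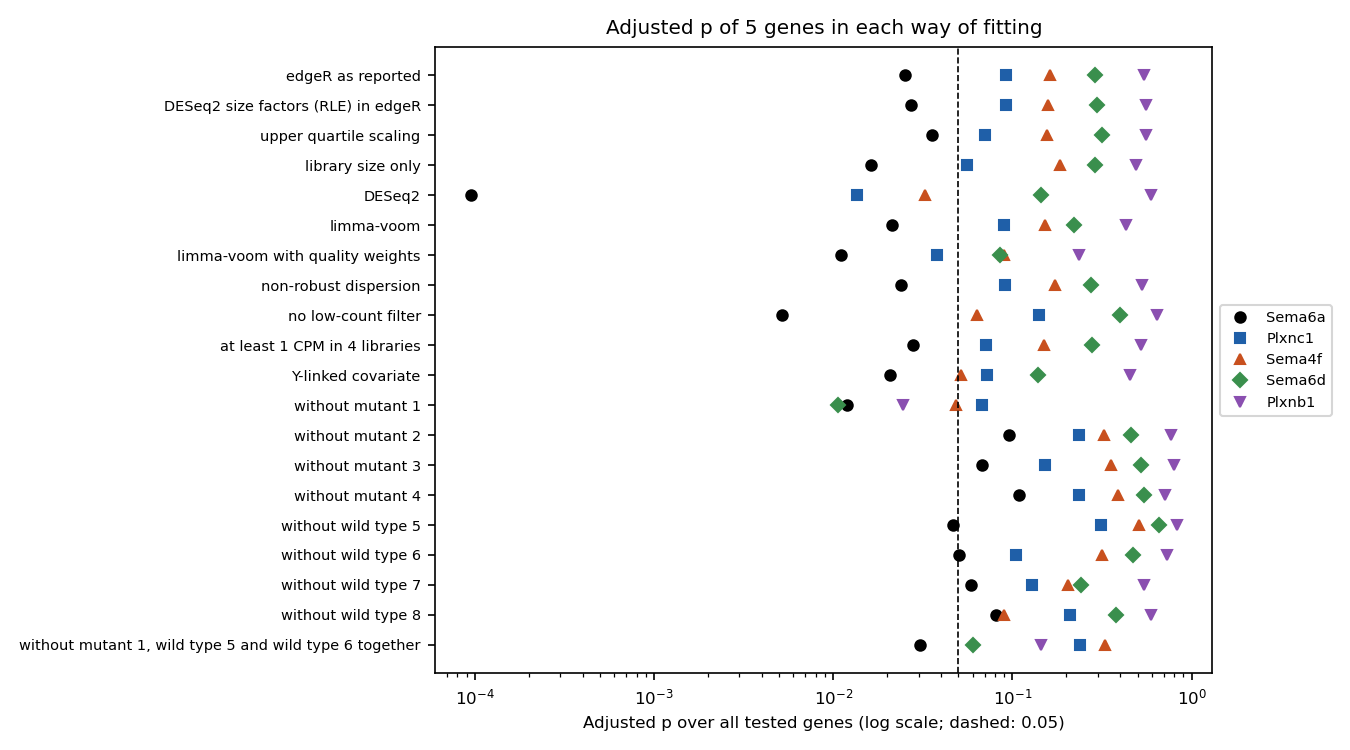
Each point is the adjusted p of 1 gene over all tested genes, on a log axis, for the reported fit and its 19 alternatives, with a dashed line at 0.05. Sema6a lies below 0.05 in the reported fit and in 13 alternatives, Plxnc1 and Sema4f in 2 each, and Sema6d and Plxnb1 only without mutant 1.

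The promoter windows of Plxnc1, Plxnb1, Sema4f and Sema6d are printed because these members passed in at least 1 alternative fit and Hoxa2 and Hoxb2 encode DNA-binding factors. Sequences are those of RefSeq (GRCm38.p6). RefSeq windows were matched for 26 of the 31 members, that is all but Sema3b, Sema3f, Sema6a, Plxna1 and Plxna4. The 250 bases before each start were searched on both strands for TGATNNAT, the letters of a joint Hox and Pbx site, and for TGACAG, those of a Meis site. Matches of the 2 motifs were counted separately, whether or not they overlapped. The first was found in 7.68% and the second in 15.9% of all 32851 windows. The 26 members had 37 windows, of which 1 held the first motif (Sema6d) and 7, of 5 genes, held the second (Plxna2, Sema3g, Sema4d, Sema6c and Sema7a). The windows below are those of Plxnc1 (chr10:94944846-94945095, minus strand), Plxnb1 (chr9:109095186-109095435, plus strand), Sema4f (chr6:82939770-82940019, minus strand) and a start of Sema6d within the gene (chr2:124653331-124653580, plus strand), written 5′ to 3′, with the TGATNNAT match in capitals.
Plxnc1: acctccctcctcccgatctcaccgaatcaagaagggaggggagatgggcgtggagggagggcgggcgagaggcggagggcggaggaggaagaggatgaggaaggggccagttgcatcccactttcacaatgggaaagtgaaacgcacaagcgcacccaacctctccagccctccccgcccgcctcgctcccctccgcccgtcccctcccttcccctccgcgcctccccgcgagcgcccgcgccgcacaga
Plxnb1: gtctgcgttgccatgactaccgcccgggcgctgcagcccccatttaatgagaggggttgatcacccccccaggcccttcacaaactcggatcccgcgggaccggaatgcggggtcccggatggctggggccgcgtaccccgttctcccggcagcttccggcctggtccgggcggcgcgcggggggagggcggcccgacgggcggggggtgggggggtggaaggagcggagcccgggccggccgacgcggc
Sema4f: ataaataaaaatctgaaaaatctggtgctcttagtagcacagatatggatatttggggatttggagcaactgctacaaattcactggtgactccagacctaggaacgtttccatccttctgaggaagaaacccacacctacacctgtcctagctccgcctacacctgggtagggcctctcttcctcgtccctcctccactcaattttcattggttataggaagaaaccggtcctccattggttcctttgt
Sema6d: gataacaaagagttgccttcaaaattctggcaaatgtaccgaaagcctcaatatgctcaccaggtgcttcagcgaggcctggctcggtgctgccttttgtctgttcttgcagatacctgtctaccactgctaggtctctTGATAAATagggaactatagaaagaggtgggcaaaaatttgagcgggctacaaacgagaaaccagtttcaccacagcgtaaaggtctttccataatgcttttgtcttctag
The match in Sema6d begins 111 bases before that inner start, and the window before the outermost Sema6d start held neither motif. The inner window ends like an intron before an exon, in a stretch rich in T and C followed by AG, so that this RefSeq start may not be one of transcription and the match may not lie in a promoter. Plxnc1, Plxnb1 and Sema4f held neither motif within these 250 bases. GC content was 68.8% in the Plxnc1 window, 75.2% in that of Plxnb1 and 46.0% in that of Sema4f.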

How the data were processed

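RNA from sorted cells was made into libraries from 2 ng of total RNA with poly-A and random primers and 14 PCR cycles, and the 8 libraries were run on 3 lanes, per the labels' protocols. The authors deposited raw read counts per Ensembl gene with a gene width in another column, per the file headers. Per the submitters' processing notes, bcl2fastq 1.8.4 was used and the genome was mm10. For aligner, counter, strand and annotation, nothing is given in the sources used here. Column headings show the group but no replicate number of the titles.

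The members and gene lists were chosen with earlier results of these data known. Counts were filtered by filterByExpr, scaled by TMM and tested with edgeR 4.0.16 (quasi-likelihood, robust, no covariate) in R 4.3.3, with Benjamini-Hochberg adjustment over all tested genes. Each SE is approximate, |log2 change| over the root of the F statistic. DESeq2 1.42.0, limma 3.58.1, other scalings and filters, a Y-linked covariate and libraries left out were alternatives. No library pair agreed within sampling noise (lowest chi-square per gene 16.5). Intervals cover counting error only. Positions and exon overlaps are from GENCODE M21. All 31 members are named, with the 4 partners of lowest p.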

Additional observations from a re-analysis of the deposited data

Results flagged for a closer look

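For 5 of 62 sets of 4 libraries (31 genes in each group) the outermost library stood far from the other 3, by Dixon's gap at 95%, where chance alone marks about 1 in 20 sets. Sema7a reached 42.1 CPM in mutant 1, against no more than 12.7 CPM in mutant 2 to 4. Sema5b reached 38.8 CPM in mutant 1, against no more than 22.4 CPM in the other mutant libraries. Plxna2 was at 221 CPM in wild type 6 and at least 303 CPM in wild type 5, 7 and 8. Plxnb1 was at 100.3 CPM in wild type 6 and at most 84.3 CPM in the others of its group. Sema4a was at 2.88 CPM in wild type 5 and at least 4.67 CPM in wild type 6 to 8.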

How the results depend on the processing

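Of the 31 members 1 passed, beside 3 with DESeq2 (Sema6a, Plxnc1 and Sema4f), 2 with limma-voom with quality weights (Sema6a and Plxnc1) and 0 to 4 with single libraries left out. The 4 without mutant 1 were Sema6a, Sema6d, Plxnb1 and Sema4f. Of the partners 0 passed, beside 1 with DESeq2, 0 to 1 with single libraries left out and 2 (Chl1 and Cntn2) when mutant 1, wild type 5 and wild type 6 were dropped at once. Over all genes 70 passed, beside 472 with DESeq2, 233 with quality weights, 214 with no low-count filter, 171 when those 3 libraries were dropped, and 26 (without mutant 4) to 544 (without mutant 1) with single libraries left out. The cause was not tested. Sema6a was below 0 in all 19 alternatives, from -0.70 to -0.59.

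The sign turned in 24 cases over 10 members, none of which passed in any alternative. With single libraries left out, the log2 change ran from -0.17 to 0.45 for Sema3b, -0.35 to 0.71 for Sema3e, -0.15 to 0.64 for Sema3g, -0.25 to 0.033 for Sema4c, -0.083 to 0.38 for Sema5a, -0.36 to 0.046 for Sema5b, -0.065 to 0.16 for Sema6c, -0.68 to 0.32 for Sema7a and -0.23 to 0.41 for Plxnd1. With mutant 1, wild type 5 and wild type 6 dropped at once it was -0.034 for Sema4g and -0.49 for Sema7a. Library size only gave -0.038 for Sema6c and -0.024 for Plxnd1, limma-voom -0.16 for Sema7a, and quality weights -0.028 for Sema6c and -0.31 for Sema7a. With library size only, all tested genes had a median log2 change of -0.07. No paired analysis was possible because the column headings do not carry the replicate numbers of the titles.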

Other observations

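Known ligand and receptor pairs were set side by side as ratios of CPM per kb within a library, as values with no test. Sema6a stood at 1.797 to 3.08 times Plxna2 in wild type and at 1.43 to 1.60 times in mutant libraries. Against Plxna4, its other receptor, Sema6a stood at 31.7 to 75.9 times in wild type and at 12.2 to 31.1 times in mutant libraries. Sema3f stood at 2.84 to 7.09 times Nrp2 in wild type and at 7.73 to 14.0 times in mutant libraries. In these 3 pairs the groups did not overlap. The pairs with Sema6a hold a member whose own level already separated the groups, and with Plxna4 the ranges nearly met, at 31.1 and 31.7 times. Sema3f and Nrp2 each had an unadjusted edgeR p below 0.05, Sema3f higher and Nrp2 lower in mutant libraries, so that their ratio in part restates those values. How often unrelated gene pairs separate in this way was not computed. The groups did overlap in the other 7 pairs computed: Sema6d and Plxna1, Sema4d and Plxnb1, Sema4c and Plxnb2, Sema7a and Plxnc1, Sema3a and Nrp1, Sema3e and Plxnd1, and Sema5a and Plxnb3. Sema7a, for example, stood at 0.141 to 0.305 times Plxnc1 in wild type and at 0.117 to 0.643 times in mutant libraries, and Sema4c at 0.0672 to 0.134 and 0.0893 to 0.149 times Plxnb2.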
